A study of Mus musculus with 32 samples.

Results

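The scaffold of the postsynaptic side of the synapse was followed through 9 genes taken by name: the Shank genes Shank1, Shank2 and Shank3, the Homer genes Homer1, Homer2 and Homer3, the spine genes Ddn and Synpo, and Gphn, which encodes gephyrin. All 9 were found among the 44081 genes of the 3′UTR count table, and they held 42 of the 74532 3′ ends counted in a second table. In single hippocampal neurons that had been cut into dendrites and soma, Shank3 was higher in the dendrites of 13 of 16 neurons and Gphn was higher in the soma of 11 of 16, and Shank2 and Homer2 were higher in the dendrites of 11 of 16. No gene of the set passed the false discovery threshold of the main test, edgeR. On simulated data that test called 64 of 168 genes changed by 4 on the log2 scale. DESeq2, the paper's own test, called Shank3 higher in dendrites, as 4.26% of all genes, and Gphn higher in somas, as 46.2%.

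Shank proteins lie deep in the postsynaptic density of excitatory spines, where they link the PSD-95 and SAPAP complex to Homer and to the actin cytoskeleton. Homer proteins bind group I metabotropic glutamate receptors, inositol trisphosphate receptors and Shank, and their coiled coils let the long forms assemble into a lattice. Dendrin and synaptopodin are actin-associated proteins of dendrites and spines, and gephyrin is the scaffold of the inhibitory synapse, where it clusters glycine and GABA-A receptors.

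Neurons of embryonic day 18 C57BL/6 mice were kept in culture for 15 days, and the dendrites and the soma of each cell were taken up by separate micropipettes. This gave 16 dendrite and 16 soma libraries, paired by neuron, with no treatment or genotype to compare. The paper reports that the neurons came from several cultures and days, and that libraries were sequenced on a HiSeq or a NextSeq. The tests held no term for culture, day or sequencer and took the neurons as independent. Amplification of poly-adenylated RNA by the aRNA method (copying by in vitro transcription from a primer at the poly-A tail) took 3 rounds in neurons 1 to 4 and 2 rounds in the other 12, and an ERCC spike-in (synthetic control RNA) was labelled as absent for neurons 1 and 2. A dendrite library is all the dendritic material drawn from 1 cell, so that less RNA of a gene in the dendrites and less dendrite collected cannot be told apart.

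Reads on 3′UTRs numbered 646521 to 6954420 in dendrite libraries and 925525 to 21169974 in soma libraries, and mitochondrially encoded genes took a median of 13.5% of them in dendrites and 1.05% in somas. Detection is given at 1 read and at 10 reads. Levels are given in CPM, read counts scaled to a common library size after TMM normalization, and reads carry no molecular identifiers. Map2, the dendritic microtubule protein, was higher in the dendrites than in the soma of 14 of 16 neurons, all but neurons 2 and 14. Markers of GABAergic neurons summed to a median of 4142 CPM in dendrites (1841 to 11743) and 9880 CPM in somas (1647 to 20233). Those of glutamatergic neurons summed to a median of 217 CPM in dendrites (0.742 to 3255) and 57.1 CPM in somas (0 to 2024), so that the medians of the lists moved in opposite directions. Astrocyte markers summed to a median of 214 CPM in dendrites and 192 CPM in somas, and the lists for microglia, oligodendrocytes and endothelial cells had medians under those. The part these differences had in the scaffold results was not tested.

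Because priming starts at the poly-A tail, the reads lie near the 3′ ends of the transcripts, and the ends themselves are therefore shown for the genes with a poly(A) signal there. In the GENCODE M21 annotation of GRCm38 (mm10), the last 40 bases of the 3′-most coding transcript were searched on the transcript strand for AATAAA and, where that was absent, for ATTAAA. The first was present in 57.8% of the 21762 protein-coding genes so searched, and the second alone in a further 12.7%. Shank2, Shank3, Homer3, Ddn and Gphn held AATAAA, which is in capitals below, with the bases around it. The windows lie at chr7:144424461-144424490 (plus strand) for Shank2, chr15:89560228-89560257 (plus) for Shank3, chr8:70294322-70294349 (plus) for Homer3, chr15:98803785-98803814 (minus) for Ddn and chr12:78684733-78684756 (plus) for Gphn.
Shank2: tactgtaaaaaaAATAAAtatactcttgca
Shank3: ataatattatgtAATAAAtttataagaaat
Homer3: ttaatgactgAATAAAcaaatgaacaag
Ddn: tagcaggcgcccAATAAAtctactcgcccc
Gphn: ttaatgAATAAAaaaaaaatcctt

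For Shank1 (chr7:44310253-44360572, plus strand), Homer1 (chr13:93299635-93405129, plus strand) and Homer2 (chr7:81600481-81707527, minus strand), neither hexamer lay in those 40 bases. The longest annotated 3′UTRs differed widely within the set. That of Homer2 ran to 9775 bases, longer than in 99.7% of protein-coding genes, and that of Gphn to 864 bases, against a median of 913 over all genes. With ends less than 500 bases apart merged, Homer1 had 6 annotated 3′ ends, Homer3 had 3, and Ddn and Gphn had 1 each.

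Shank3 binds the SAPAP proteins through its PDZ domain and, among the 3 Shank genes, had the largest fitted difference towards the dendrites. In dendrites its level ran from 1.61 to 382 CPM with a median of 64.2, and every one of the 16 libraries had at least 3 reads. In somas it ran from 0 to 70.3 CPM with a median of 8.47, and 15 of 16 libraries had a read. The ranges overlapped, but the dendrite value was the higher in 13 of 16 neurons, and the exceptions were neurons 2, 14 and 15. The fitted difference was a log2 fold change of 2.33 (SE 1.01, n = 16 pairs) towards dendrites, with an unadjusted p of 0.0253 and an adjusted p of 0.119 (edgeR quasi-likelihood test with Benjamini-Hochberg adjustment). On the paired differences of log2(CPM + 1), which averaged 1.99 ± 2.56 (SD, n = 16), the exact sign-flip permutation test gave p = 0.00848, two-sided, and 0.0425 after adjustment over all 10880 genes.

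The calls on Shank3 therefore depended on the test. DESeq2 also placed it above the threshold, at 2.07 on the log2 scale with an adjusted p of 0.0015. That test called 4.26% of all genes higher in dendrites, and the sign-flip test called 3.24%. Without neurons 2 and 14, the pair with low dendritic Map2, the edgeR value was 2.77 (adjusted p = 0.0724). Without neurons 15 and 16, whose dendrite libraries held the fewest genes with at least 10 reads, it was 2.69 (adjusted p = 0.131). When reads on exons replaced reads on 3′UTRs, Shank3 was again higher in dendrites, with an unadjusted p of 0.0348 and an adjusted p of 0.174 (edgeR). The exon fit called none of the 7 scaffold genes it could test, while in its whole table dendritic calls made up 1% of genes and somatic calls 2.62%.

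Shank2 organises the same scaffold and had 9900 reads on its 3′UTR over all libraries. Its dendrite level ran from 0 to 653 CPM with a median of 99.4, and its soma level from 7.23 to 132 CPM with a median of 42.5. The dendrites were higher in 11 of 16 neurons, and all but 1 dendrite library, that of neuron 12, held at least 10 reads. The log2 fold change was 1.49 (SE 0.93, n = 16 pairs) towards dendrites and did not pass the edgeR test (adjusted p = 0.257). Among neurons with 2 rounds of amplification 10 of 12 were higher in dendrites, and among those with 3 rounds 1 of 4 was, but the difference between these groups was -2.13 on the log2 scale (SE 2.02, 3 rounds minus 2 rounds) and did not pass either (unadjusted p = 0.297, edgeR interaction test).

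Shank1 was the sparsest of the 3 Shank genes among the libraries. Dendrites held from 0 to 70.2 CPM with a median of 1.75, and somas from 0 to 53.8 CPM with a median of 3.50. The ranges overlapped, and the soma was higher in 10 of 16 neurons. The log2 fold change was -0.55 (SE 1.40, n = 16 pairs, adjusted p = 0.795 in the edgeR test), and it turned to 1.04 (SE 1.46) when exon reads were used. The compartment with all the reads changed between neurons: neuron 12 had 83 reads in its dendrites and 0 in its soma, and neuron 15 had 0 and 497.

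Among the Homer genes, Homer1 encodes both the coiled-coil scaffold and a short activity-induced form that lacks the coiled coil. Its dendrite level ran from 0 to 360 CPM with a median of 42.1, and its soma level from 2.18 to 152 CPM with a median of 83.4. Dendrites had the wider range, with the soma higher in 9 of 16 neurons and the dendrites in 7. In 4 neurons under 0.1 of the summed CPM was dendritic, and in 2 neurons over 0.9 was. The log2 fold change was -0.63 (SE 1.00, n = 16 pairs, adjusted p = 0.666 in the edgeR test).

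Homer2, the partner of long Homer1 in the same lattice, had 27369 reads on its 3′UTR over all libraries. The dendrite level ran from 0 to 1001 CPM with a median of 179, and the soma level from 0.108 to 652 CPM with a median of 89.6. Dendrites were higher in 11 of 16 neurons, including all 4 neurons with 3 rounds and 7 of the 12 with 2 rounds, and neurons 15 and 16 had no dendritic read. The log2 fold change was 0.54 (SE 0.78, n = 16 pairs, adjusted p = 0.638 in the edgeR test). The test of the difference between rounds gave 2.05 on the log2 scale (SE 1.68, 3 rounds minus 2 rounds, unadjusted p = 0.229, edgeR).

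Homer3, a further member of the family, was scarce and was left out of the fit, since only 15 libraries held a read of it. At least 1 read was found in 6 dendrite and 9 soma libraries, and at least 10 reads in 2 of each. Its highest value was 18.0 CPM in dendrites, in neuron 6, whose soma had no read, and 15.1 CPM in somas, in neuron 8, whose dendrites had none. Without a filter on low counts, the fitted difference for Homer3 was -0.37 (SE 1.93) on the log2 scale, and no direction can be read from it at this depth.

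**Figure D1:**
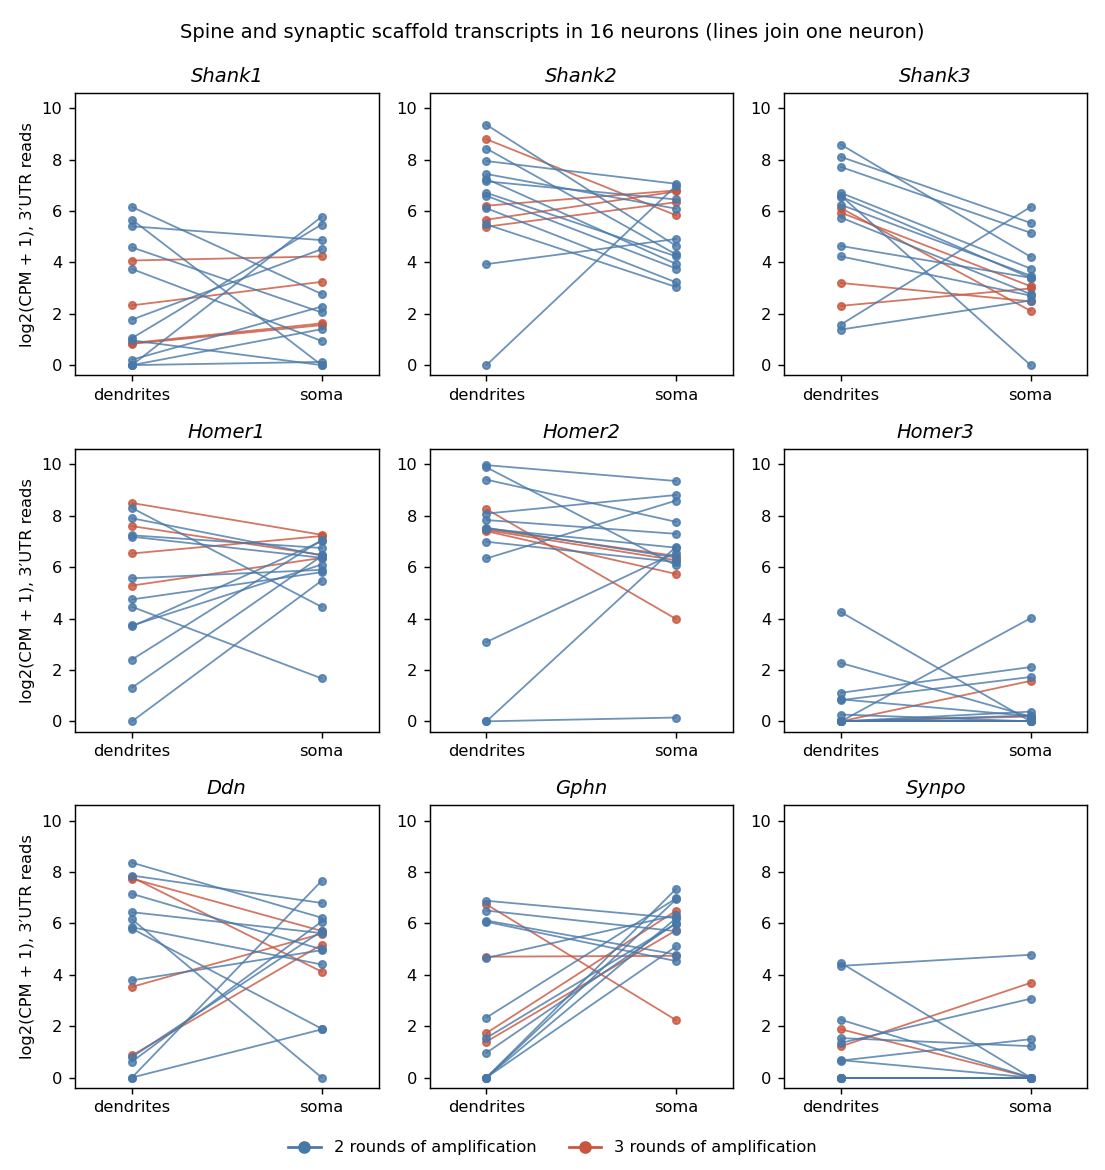
Levels of the 9 scaffold genes in dendrites and soma, as log2(CPM + 1) of 3′UTR reads, with a point per library and a line joining the libraries of each of 16 neurons, coloured by rounds of amplification. Shank3 falls from dendrites to soma in 13 neurons, Gphn rises in 11, and lines cross in both directions for Shank1, Homer1 and Ddn.

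Ddn encodes dendrin, whose mRNA is a classic resident of forebrain dendrites. In dendrites the level ran from 0 to 328 CPM with a median of 55.5, and in somas from 0 to 200 CPM with a median of 41.2. The ranges overlapped, with the highest value in a dendrite library and the dendrites higher in 9 of 16 neurons and the soma in 7. Neurons 3, 13, 14, 15 and 16 had between 0 and 1 dendritic reads of Ddn, although their somas held 35 to 1851. The log2 fold change was 0.04 (SE 1.59, n = 16 pairs, adjusted p = 0.989 in the edgeR test), and its sign changed in 9 of the 16 fits that left out 1 neuron.

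Synpo, which encodes the protein needed for the spine apparatus, had a read in 9 dendrite and 5 soma libraries, 14 in all, and was therefore not in the fit. Its level ran from 0 to 21.04 CPM in dendrites (median 0.589) and from 0 to 26.4 CPM in somas (median 0). Dendrites were higher in 5 and somas in 4 of the 9 neurons with a read, and the highest values were in neuron 7 for dendrites and in neuron 14 for somas.

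Gphn, the only member of the set from the inhibitory synapse, was the most uneven towards the soma. In dendrites its level ran from 0 to 117 CPM with a median of 3.18, and 12 of 16 libraries held a read. In somas it ran from 3.70 to 161 CPM with a median of 63.1, and all 16 libraries held a read. The soma was higher in 11 of 16 neurons. In 9 neurons under 0.1 of the summed CPM was dendritic, whereas in neurons 1, 5, 8, 9 and 10 over 0.6 of it was.

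The log2 fold change of Gphn was -3.54 (SE 1.55, n = 16 pairs), with an unadjusted p of 0.0265 and an adjusted p of 0.122 in the edgeR test. With no replicate block for neuron it was -1.07 (SE 0.84). Over the paired differences of log2(CPM + 1), which averaged -2.60 ± 3.60 (SD, n = 16), the exact sign-flip permutation test gave p = 0.014, two-sided, and 0.0557 adjusted over all genes, of which that test called 19.7% higher in somas. DESeq2 called Gphn higher in somas (log2 fold change -3.77, adjusted p = 3.49e-05), in a comparison in which it called 46.2% of all genes so. Measured on exons, the difference was -1.98 (SE 1.35). Without neurons 15 and 16 it was -2.47 (adjusted p = 0.334, edgeR), and without neurons 2 and 14 it was -4.34 (adjusted p = 0.0949).

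At an adjusted p of at most 0.05, the edgeR test called 0 of the 7 testable genes in favour of the dendrites and 0 in favour of the soma. Among all 10880 genes in the fit, the dendritic calls made up 0.827% and the somatic calls 5.71%. With an unadjusted p under 0.05 the test held 2 of the 7, Shank3 and Gphn, and 3287 genes in all. DESeq2 called those same 2 genes. The median log2 fold change was 0.04 over the 7 scaffold genes and -1.49 over all genes tested, and 57.1% of the 7 but 21.2% of all genes had a value above 0. In this fit all but Gphn lay above the median gene. The median over all genes depended on the model. It was -0.22 with no replicate block, and -0.17 over the 31102 genes fitted with no filter on low counts.

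A value near 0 on the TMM scale thus lay above most genes in the main fit, and other scalings were compared. With the dendrite libraries rescaled so that the median gene lay at -0.05, Shank2 (2.99, SE 0.92, adjusted p = 0.0401) and Shank3 (3.82, SE 1.04, adjusted p = 0.0168) were called higher in dendrites by the edgeR test, which then called 5.04% of all genes so and 0.846% higher in somas. With libraries scaled to their spike-in reads in neurons 3 to 16, the median gene lay at -3.96. Shank3 was then at 0.04 (SE 1.62) and Shank2 at -0.61 (SE 1.34), Gphn was called higher in somas at -7.07 (SE 1.84, adjusted p = 0.00161), and the 4 other tested genes lay between -3.16 and -2.01. Shank3 and Shank2 lay highest and Gphn lowest under each of these scalings. A scaling moves all genes of a library together, so that this order could hardly change and the comparison does not test it. The direction of Shank2 and of the 4 others did change.

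**Figure D2:**
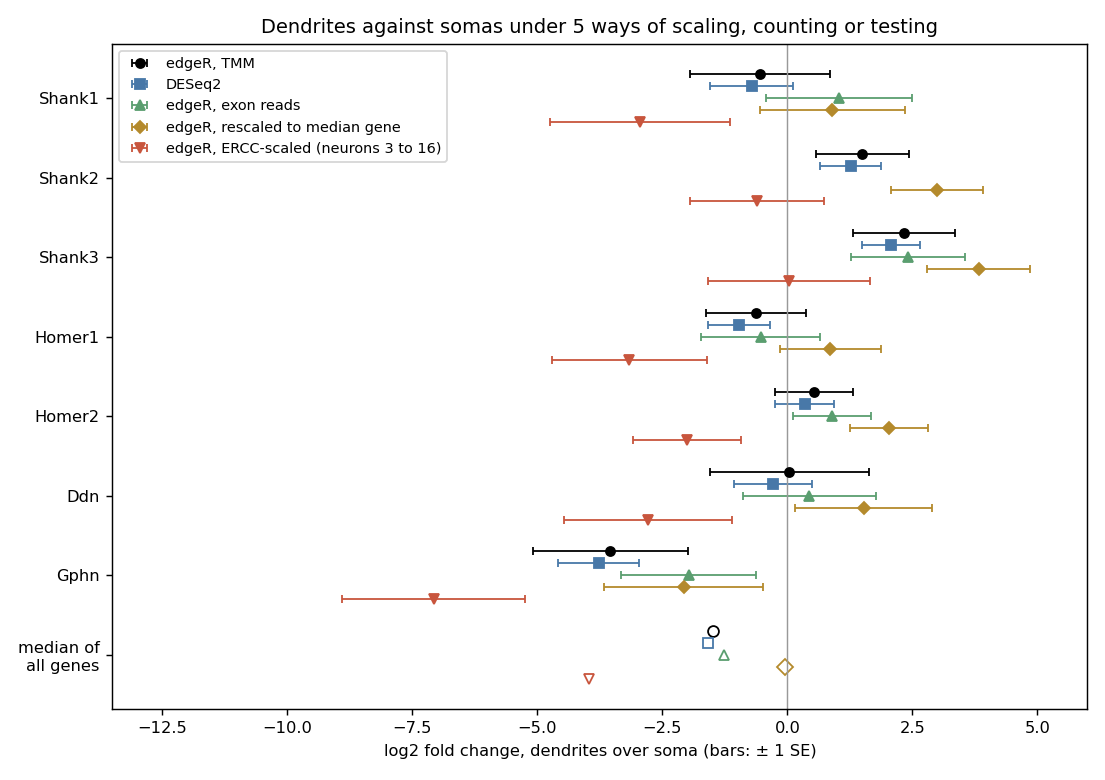
Log2 fold change of dendrites over soma for the 7 tested genes under 5 ways of scaling, counting or testing, as points with bars of 1 SE, and the median over all genes as open symbols. Shank3 lies to the right of 0 in 4 of 5 and at 0.04, within its SE of 0, under spike-in scaling, Gphn lies to the left in all 5, and every value moves left under spike-in scaling, which has 14 neurons.

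Localization was then compared between neurons by the dendritic fraction, the CPM in dendrites over the sum of both compartments, taken where that sum was at least 10 CPM. The median fraction was 0.88 for Shank3 (15 neurons), 0.786 for Shank2 (16), 0.678 for Ddn (15), 0.636 for Homer2 (15), 0.533 for Shank1 (10), 0.413 for Homer1 (16) and 0.031 for Gphn (16). The median of these medians was 0.636, against 0.302 over the 9723 genes with at least 5 such neurons. Fractions under 0.1 or over 0.9 occurred in 62.5% of neurons for Gphn and 60.0% for Shank1, and in 25.0% for Shank2 and 26.7% for Homer2. The median over the 7 genes was 40%, and over all genes 50%. Neighbours in this order had fractions that overlapped over most of their range.

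**Figure D3:**
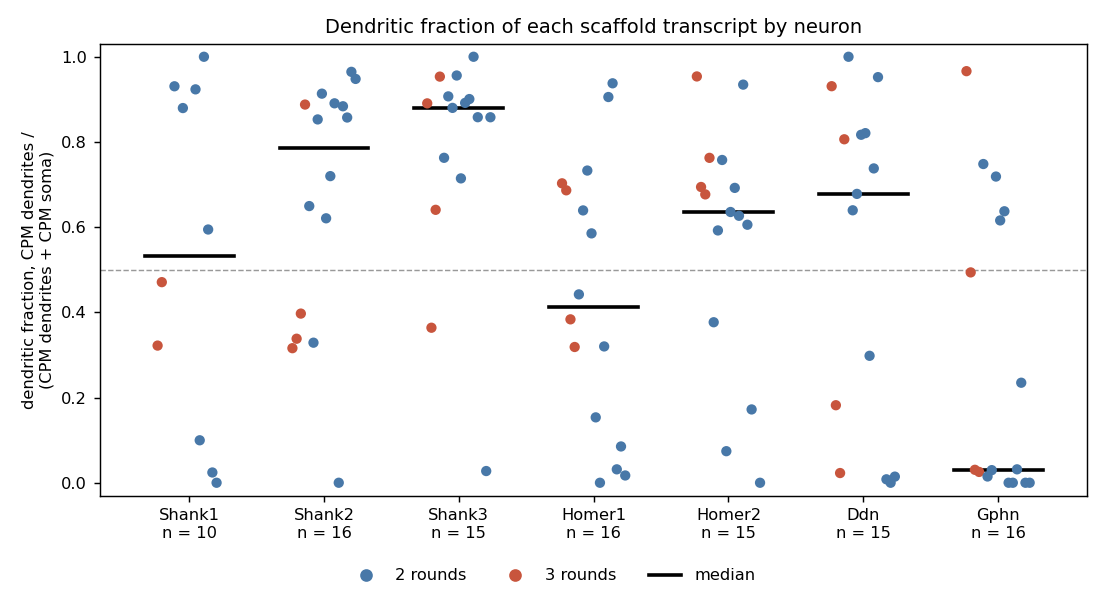
Dendritic fraction of the 7 tested genes, with a point per neuron (neurons 1 to 16 from left to right within a gene), coloured by rounds of amplification, and a black bar at the median. The points of Shank3 gather near the top around 0.88 and those of Gphn near 0, with 5 neurons above 0.6, and the dashed line marks equal CPM in both compartments.

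Several scaffold transcripts were found together in each dendrite library. At least 1 read was found for a median of 7.5 of the 9 genes in dendrites, with a range of 3 to 9, and for a median of 8 in somas, with a range of 5 to 9. At 10 reads, the medians were 5.5 in dendrites and 7 in somas. Dendrite libraries were also shallower, with a median of 1605714 reads on 3′UTRs against 6165691 in somas. The 7 tested scaffold genes had a read in a median of 14 dendrite libraries, against 11 over all genes tested. A read in at least 15 dendrite libraries was found for 42.9% of the 7 and 17.1% of all genes tested. The dendrites of neuron 15, with 3 genes, and of neuron 16, with 4, held the fewest. Summed over the set, dendrites had between 174 and 1666 CPM with a median of 650, and somas between 269 and 875 CPM with a median of 352.

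The labels give a technical split by rounds of amplification and another by the spike-in, which they mark as absent for neurons 1 and 2, both with 3 rounds. The paper states that the spike-in went into every tube. The 4 libraries of these neurons held 59 to 80 spike-in reads, against at least 3083 in every other library. Neurons 1 and 2 are too few for a value of their own, and they differed between themselves in Shank3, which was 60.2 CPM in the dendrites and 7.40 in the soma of neuron 1, and 3.95 and 6.91 CPM in neuron 2. In the edgeR test of the interaction between compartment and rounds, 0 of the 7 scaffold genes and 0 of all 10880 genes passed at an adjusted p of at most 0.05 (background 0%), and 288 genes had an unadjusted p under 0.05. Within the 12 neurons of 2 rounds, the log2 fold change of Shank3 was 2.47 (SE 1.29) and that of Gphn -4.23 (SE 1.94). With 3 rounds, in 4 neurons, Shank3 was at 2.13 (SE 1.96) and Gphn at -1.75 (SE 2.23).

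The binding partners of these scaffolds were taken from 5 lists of 44 genes, of which 42 could be tested and Baiap2 and Synpo2 could not. The edgeR test called 0 of them in favour of the dendrites and 1 in favour of the soma, against the same 0.827% and 5.71% of all genes. The 1 gene was Dnm3, a dynamin that binds Homer at the edge of the postsynaptic density, at -4.01 on the log2 scale (SE 1.27, adjusted p = 0.0452) and the soma higher in 13 of 16 neurons. That call was lost in 9 of the 16 fits without 1 neuron, those without neuron 3, 7, 8, 10, 11, 12, 13, 15 or 16 (adjusted p from 0.0644 to 0.119). The median over the 42 partners was -1.21, and 25 of them lay above the median gene.

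Within the lists, 5 of 42 partners had an unadjusted p under 0.05, against 3287 of 10880 genes in all, and those 5 were lower in dendrites on the TMM scale. With dendrites rescaled to the median gene, the edgeR test called 3 of the 42 partners, all in favour of the dendrites. They were Dlgap1, Dynll2 and Myo5a, a myosin motor of spines, named after their values were seen. The call on Dnm3 was lost under that scaling (adjusted p = 0.289, edgeR). Over all 10880 genes, the rescaled fit gave 5.04% dendritic and 0.846% somatic calls. Whether 3 of 42 exceeds that dendritic share was not tested. Among the 9 tested Shank partners, whose median was -0.92, Abi1, a regulator of the WAVE actin complex, lay at -3.16 (SE 1.31, adjusted p = 0.108, edgeR). Dlgap1, which encodes the SAPAP protein that joins PSD-95 to Shank, lay at 0.73 (SE 0.43, adjusted p = 0.236, edgeR), with the dendrites higher in 12 of 16 neurons. It was found in all 32 libraries, with medians of 841 CPM in dendrites and 541 in somas.

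The 6 Homer partners had a median of -1.40. The 9 gephyrin partners had a median of -1.17. Of these, the dynein light chain gene Dynll2 lay at 0.23 (SE 0.40, adjusted p = 0.701, edgeR). The 7 tested partners of synaptopodin and dendrin had a median of -1.96, with Magi2, a PDZ scaffold, at -2.23 (SE 1.25, adjusted p = 0.212, edgeR) and Actn2, an actinin, at 0.69 (SE 1.38). For the 11 spine actin and signalling scaffolds the median was -1.48, with Lrrc7, the densin gene, at -4.17 (SE 1.48, adjusted p = 0.0696, edgeR) and Lzts1 at 0.51 (SE 1.63).

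The 3′ ends of the scaffold genes were counted separately by the authors, as the last 500 bases of each end, and are numbered in the deposited table without a position. They are therefore named here by that number, and which of them is nearer to the stop codon is not known. Ddn and Gphn had 1 end each, and Homer2 was served almost entirely by its end 1, with 99.8% of 6202 reads. Those 6202 were 22.7% of the Homer2 reads on 3′UTRs, against a median of 95.5% over all genes, so that most of its reads lay outside the counted ends. For Gphn the share was 63.6%, for Shank1 68.4%, and for Homer1 69.1%.

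For Shank3, end 1 took 89.7% of the reads and led in all 14 somas and in 11 of 13 dendrites with at least 10 reads. End 3 was found in 8 dendrites and 4 somas, and 412 of its 432 reads were dendritic, 285 of them from neuron 8 alone. Over the 12 neurons with at least 10 reads on both sides, the share of end 1 averaged 0.833 in dendrites and 0.973 in somas. The difference of -0.14 ± 0.26 (SD, n = 12) did not pass the exact signed-rank test (two-sided, p = 0.25). End 1 had the lower share in dendrites in 5 neurons and the higher in 3, and the other 4 were equal.

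Homer1 had 1336 dendritic and 6066 somatic reads on its ends, so that its somas could show more of them, and the spread over ends was not tested. End 3 led in 9 of 10 dendrites and 9 of 15 somas with at least 10 reads on its ends, and ends 1, 2, 4 and 9 led in the other somas. The leading end took a median of 90.4% of a dendrite's reads and 55.8% of a soma's. Dendrites held 123 of the 1168 reads on end 1 and 872 of the 4006 on end 3. Between ends 1 and 3, the share of end 1 averaged 0.105 in dendrites and 0.272 in somas over 10 neurons, a difference of -0.17 ± 0.43 (SD), with an exact signed-rank p of 0.25. The dendrites had the higher share of end 1 in 2 neurons, 6 and 13. Without neuron 13 the difference was -0.25 with an exact signed-rank p of 0.0781. No other neuron left out brought p under 0.1, and the next lowest was 0.156, without neuron 6.

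In Shank2, ends 1 and 2 replaced each other from library to library. End 1 led in 7 and end 2 in 8 of 15 dendrites, and in somas end 1 led in 8, end 2 in 7 and end 3 in 1. Within a neuron the compartments often disagreed: neuron 15 had 0 reads on end 1 and 986 on end 2 in its dendrites, and 221 and 0 in its soma. The share of end 1 averaged 0.385 in dendrites and 0.495 in somas, a difference of -0.11 ± 0.54 (SD, n = 15), with an exact signed-rank p of 0.621. Shank1 was more scattered still, with 6 different leading ends in the 7 dendrites and 5 in the 8 somas that had at least 10 reads on its ends.

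Over the 4 genes that had 2 used ends in enough neurons, Shank2, Shank3, Homer1 and Homer2, 0 passed the exact signed-rank test at p under 0.1, the threshold of the study, which 8.44% of 3508 genes passed. After adjustment over those genes 0 passed at 0.05. Homer2 could not have passed, since of its 8 neurons 1 had the higher share in dendrites, 1 had it in the soma and the rest were equal.

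**Figure D4:**
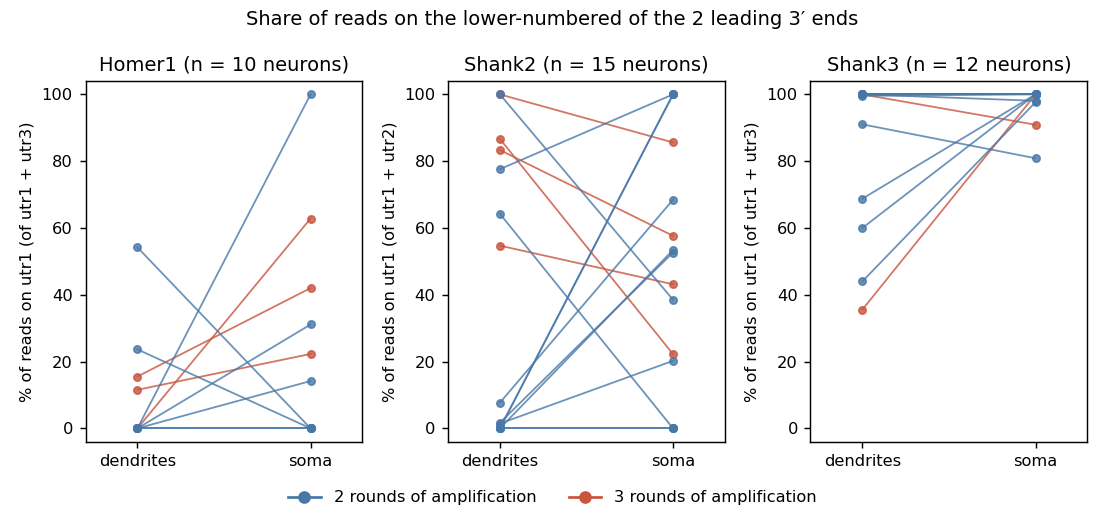
Percentage of reads on the lower-numbered of the 2 leading 3′ ends of Homer1, Shank2 and Shank3 in dendrites and soma, with a line per neuron that had at least 10 reads on them on both sides. For Shank3 most lines stay near the top and 4 neurons lie below 70% in dendrites only, and for Shank2 lines run in both directions. Shank2 lines span 0 to 100% only in neurons 14 and 15, both from 0 in dendrites to 100% in soma.

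Shank2 differed from the others in where its reads fell. It had 379 reads on exons and 9900 on 3′UTRs, a ratio of 0.0383, whereas the median over 9628 genes was 1.01, and 1.87% of genes had a ratio at or below that of Shank2. The ratio was 0.422 for Synpo, 0.591 for Homer1, 0.886 for Shank3, 1.00 for Ddn, 1.02 for Homer2, 1.10 for Gphn, 1.16 for Homer3 and 1.64 for Shank1. Too few libraries had an exon read of Shank2 for it to enter the fit on exons, so that its values rest on the 3′UTR counts.

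Across the 32 libraries, which share compartment and depth as sources of likeness, the genes most like each member were found by Spearman's rho of CPM among 7109 genes with at least 10 reads in at least 16 libraries. Shank3 was most like Kif1a, a kinesin that carries synaptic vesicle precursors, with a rho of 0.779. Homer1 was most like Glud1, with a rho of 0.737, and Actn1, a partner of synaptopodin in the lists, was next at 0.72. Gphn was most like Zfp467 with a rho of 0.759, Ddn like Atxn7l3 with 0.771, Shank1 like Slc31a1 with 0.731, Homer2 like Lynx1 with 0.686 and Shank2 like Mapk6 with 0.589. Between members, rho ran from -0.383 for Shank1 with Shank2 to 0.447 for Shank1 with Homer2, and no gene of the set was among the 3 most like another.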

How the data were processed

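Dendrites and soma of 16 single neurons were profiled. According to the submitters' processing notes and the study's methods, reads were aligned to mm10 with STAR 2.4.0 and uniquely mapped reads were counted with VERSE. The deposited values are whole-number read counts per gene on the union of its 3′UTRs, per 3′ end, and per gene on exons, without normalization. All columns were mapped to a sample.

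The fit took every gene that had a read (minimum 1) in 16 or more libraries and compared it with edgeR 4.0.16 in R 4.3.3 (TMM, robust quasi-likelihood test, neuron as a block, Benjamini-Hochberg adjustment over 10880 genes) and, as an alternative, with DESeq2 1.42.0. DESeq2, in a paired design, was the method of the paper. Shares of 3′ ends were compared with exact signed-rank tests. Figures and other values were made with Python 3.11.15. Libraries were paired by the cell they came from. Deviations from the compartment means correlated at 0.0887 ± 0.0772 (SD, n = 16, from -0.0119 to 0.244) within a neuron. Between neurons they correlated at -0.00559 ± 0.0526 (SD, n = 240, from -0.178 to 0.257). The ranges overlapped, and the 240 pairs reuse the same 32 libraries. On simulated data for this comparison, 64 of 168 tested genes changed by 4 on the log2 scale were called, all in the right direction, as were 2 of 9471 unchanged genes.

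The genes and the lists of partners and markers were chosen with earlier results of these data known, as were the tests. Every scaffold gene is named, and for each partner list the gene of smallest p in each direction, apart from 2 partners that are not reported here by name and stay in the counts. The annotation and sequences are from GENCODE M21 on GRCm38. The alternatives were other scalings, filters, exon reads, no block, rounds of amplification and each neuron left out. Depth limits sparse genes, and counts without molecular identifiers were given no interval. Protein sequences were not used here.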

Additional observations from a re-analysis of the deposited data

Results flagged for a closer look

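In the 4 neurons with 3 rounds of amplification, 17 sets of 4 values were screened for a value far from the other 3, and 4 sets held one. Chance gives about 1 in 20 sets for normally distributed values, a rate that does not hold for sparse levels such as those of Homer3 and Synpo. In a set with 3 libraries at 0, as in the somas for Synpo, 1 value above 0 always stands apart. Shank2 stood at 442 CPM in the dendrites of neuron 4, against 40.8 to 72.7 CPM in the other 3 dendrite libraries. Homer2 stood at 305 CPM in the dendrites of neuron 1, against 168 to 179 CPM in the others. Homer3 stood at 1.97 CPM in the soma of neuron 2, against 0 to 0.139 CPM, a value that rests on 2 reads. Synpo stood at 11.8 CPM in the soma of neuron 2, from 12 reads, while the other 3 somas held no read of it.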

How the results depend on the processing

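The count of scaffold genes called was 0 in every fit without 1 neuron (0 to 0) and in the fit with no replicate block, which drops the pairing by neuron. It was 2 with DESeq2, 2 with dendrites rescaled to the median gene, 1 with ERCC scaling and 1 with the exact sign-flip permutation test, which called 353 genes in favour of dendrites and 2144 in favour of somas, against 90 and 621 with edgeR. Over all genes those counts were 463 and 5029 with DESeq2, 548 and 92 after rescaling, 16 and 6681 with ERCC scaling, 157 and 77 with no replicate block, 98 and 257 on exons, 81 and 1008 with DESeq2 size factors, 15 and 143 with no filter, 88 and 181 with at least 10 reads in 16 libraries, 43 and 354 in neurons of 2 rounds, and 4 and 1 in those of 3 rounds. Partners called were 1 as reported, 3 after rescaling (all in favour of dendrites), 19 with DESeq2 (18 of them in favour of somas), 27 with ERCC scaling (all in favour of somas), 0 with no replicate block and 0 to 2 without 1 neuron, the last 2 settings chosen after seeing the data, as were ERCC scaling and the fits without neurons 15 and 16 or 2 and 14. Partners called were also 0 on exons, with no filter, with at least 10 reads in 16 libraries, in neurons of 3 rounds and without neurons 15 and 16. They were 1 in neurons of 2 rounds, 1 without neurons 2 and 14, and 2 with DESeq2 size factors. Scaffold genes past the 3′ end test numbered 0 to 1 without 1 neuron. The sign of Shank3 and Gphn did not turn in the alternatives run, but Shank3 was at 0.04 (SE 1.62) with ERCC scaling, which gives no direction, and Gphn at -1.07 with no replicate block.

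Directions turned as follows, on the log2 scale. Rescaling gave 0.90 for Shank1 and 0.86 for Homer1, and no replicate block gave 0.20 and 0.31. Exon reads gave 1.04 for Shank1. Without neurons 15 and 16, Shank1 was at 0.036 and Homer1 at 0.0066. Neurons of 3 rounds alone gave 0.34 for Homer1, and those of 2 rounds alone -0.076 for Homer2. ERCC scaling gave -0.61 for Shank2, -2.01 for Homer2 and -2.79 for Ddn. For Ddn, DESeq2 size factors gave -0.26, no filter -0.011 and DESeq2 -0.28. Fits without 1 neuron ran from -0.93 to 0.11 for Shank1, which turned only without neuron 15, and from -0.39 to 0.71 for Ddn, which turned without neuron 1, 4, 5, 6, 7, 8, 9, 11 or 12. The cause was not tested. Depth limits Homer3 and Synpo most, with at least 10 reads in 4 and 6 libraries.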
